A study of Homo sapiens with 6 samples.

Results

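Aminoacyl-tRNA synthetases load each tRNA with its amino acid, and their transcripts were followed in MHCC-97H cells, an established human hepatocellular carcinoma cell line. Treated cells received 10 μM of 6j, a compound derived from the alkaloid sophoridine, for 16 h, and non-treated cells received the solvent alone for the same time. The libraries were made to find genes that respond to 6j. Each group gave 3 libraries of polyadenylated RNA, numbered 1 to 3. The members were chosen by gene symbol as 20 cytosolic synthetase genes, the 3 scaffold genes AIMP1, AIMP2 and EEF1E1, and 16 mitochondrial synthetase genes, which are 39 of the 25445 rows of the deposited count table. All 39 passed the filter on low counts that left 15957 rows for testing. The labels describe 1 cell line at 1 dose and 1 time, and nothing states whether the 3 libraries of a group came from separate cultures. The p-values therefore set the difference between the groups against the spread between these libraries, which may be technical.

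Total counts ranged from 31533403 to 37919879 in non-treated and from 35002336 to 38018349 in 6j treated cells. The labels call the tissue liver, but the counts per library were 0 to 8 for ALB, 0 to 7 for AFP, 0 to 3 for APOA1 and SERPINA1, 0 for TTR and 19 to 53 for HNF4A, so the defining liver genes were at or near 0. Levels are given in CPM, the count scaled to the normalized size of the library. The epithelial keratin KRT18 was at 388 to 456 CPM in non-treated and at 320 to 366 CPM in 6j treated cells, without overlap (log2 fold change −0.32, edgeR adjusted p = 0.0661). KRT8, another keratin, was at 516 to 653 CPM in non-treated and at 369 to 457 CPM in 6j treated cells and fell (edgeR adjusted p = 0.0211), and the part of this in the results was not tested. The epithelial gene EPCAM and the leukocyte genes PTPRC and CD3E were at 0 in every library. PDGFRB was at 3.77 to 6.81 CPM and PECAM1 at 0.222 to 0.776 CPM. COL1A1, a collagen gene of fibroblasts, at 203 to 275 CPM and CD68, a macrophage marker, at 39.8 to 70.5 CPM were present in both groups with adjusted p-values of 0.748 and 0.744 in edgeR's quasi-likelihood test.

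A synthetase joins an amino acid to the tRNAs that carry its anticodons, and the loaded tRNA then brings the amino acid to the ribosome. Human cells keep separate sets of nuclear genes for the cytosol and for the mitochondrial ribosome, which translates the few proteins of the mitochondrial genome, and in the symbols the mitochondrial gene carries a 2 after the name of its cytosolic partner. Synthetases fall into class I and class II by the fold of their catalytic domain, and several cytosolic ones are held together in the multi-synthetase complex by AIMP1, AIMP2 and EEF1E1. GARS and KARS each encode the cytosolic and the mitochondrial form of their enzyme from the same gene, so that their counts hold both. When amino acids run short or the endoplasmic reticulum is stressed, the translation factor eIF2 is phosphorylated and the transcription factor ATF4 accumulates. ATF4, with partners of the C/EBP family, binds a composite site known as the CARE, and several cytosolic synthetase genes are known targets.

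The letters TGATGNAAN of the CARE core were searched on both strands in the RefSeq promoter windows (GRCh38.p14), each of which covers 250 bases before to 50 bases after a start site. Windows were found for 33 members, and the genes DARS, LARS, VARS, YARS, AARS2 and VARS2 had no entry. The letters stood in 8 of these 33 members, 7 of them cytosolic and 1 mitochondrial. Over the whole table they stood in 3.61% of 35116 windows and in 4.45% of 27305 genes. The 8 stretches are shown because they tell where the letters lie in genes that rose (AARS, CARS, GARS, IARS, MARS, NARS and TARS) and in YARS2, which fell. Each is written on the strand of its gene, 5′ to 3′, with the 9 matching letters in capitals.
AARS, chr16:70289675-70289704, minus strand: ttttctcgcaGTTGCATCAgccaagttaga
CARS, chr11:3057407-3057436, minus strand: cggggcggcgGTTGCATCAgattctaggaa
GARS, chr7:30594834-30594863, plus strand: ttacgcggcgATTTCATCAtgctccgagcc
IARS, chr9:92293692-92293721, minus strand: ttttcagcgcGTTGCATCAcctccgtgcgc
MARS, chr12:57488053-57488082, plus strand: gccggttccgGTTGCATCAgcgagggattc
NARS, chr18:57621803-57621832, minus strand: ctacgctctcTGATGCAACgccggaatcgc
TARS, chr5:33440956-33440985, plus strand: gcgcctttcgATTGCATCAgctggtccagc
YARS2, chr12:32756075-32756104, minus strand: tccacactgcTGATGGAAAaattaagttta

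Read on the strand of the motif, AARS, CARS, IARS, MARS and NARS shared TGATGCAAC, TARS held TGATGCAAT, GARS held TGATGAAAT and YARS2 held TGATGGAAA. The motif ran against the direction of transcription in 6 of the 7 cytosolic genes and along it in NARS and YARS2. Counted from the start site of the window that held it, the match began at −34 in GARS, −14 in IARS, −5 in MARS, −3 in CARS, 2 in TARS and 15 in NARS, all within 50 bases of that start. It began at −188 in AARS and −197 in YARS2. GARS, CARS and TARS have 2 windows each, and the letters stood in only 1 of them. The start site that RefSeq gives for MARS lies downstream of the outermost exon of that gene in GENCODE. Of the 10 cytosolic genes that rose in 6j treated cells, 9 had a window and 7 of these held the letters, while SARS and EPRS did not. None of the 7 cytosolic genes that had a window and did not pass the test held them, nor did any window of the scaffold genes. The CARE letters were chosen with earlier results of these data known, and several cytosolic synthetase genes were already known targets of ATF4. This contrast is therefore a description and no test. A second motif, TGACGTCA, stood in 2.25% of all genes and among the members only in AIMP2, at −69, in a window without the CARE letters. A match is a run of letters, and binding at these sites was not measured here.

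**Figure D1:**
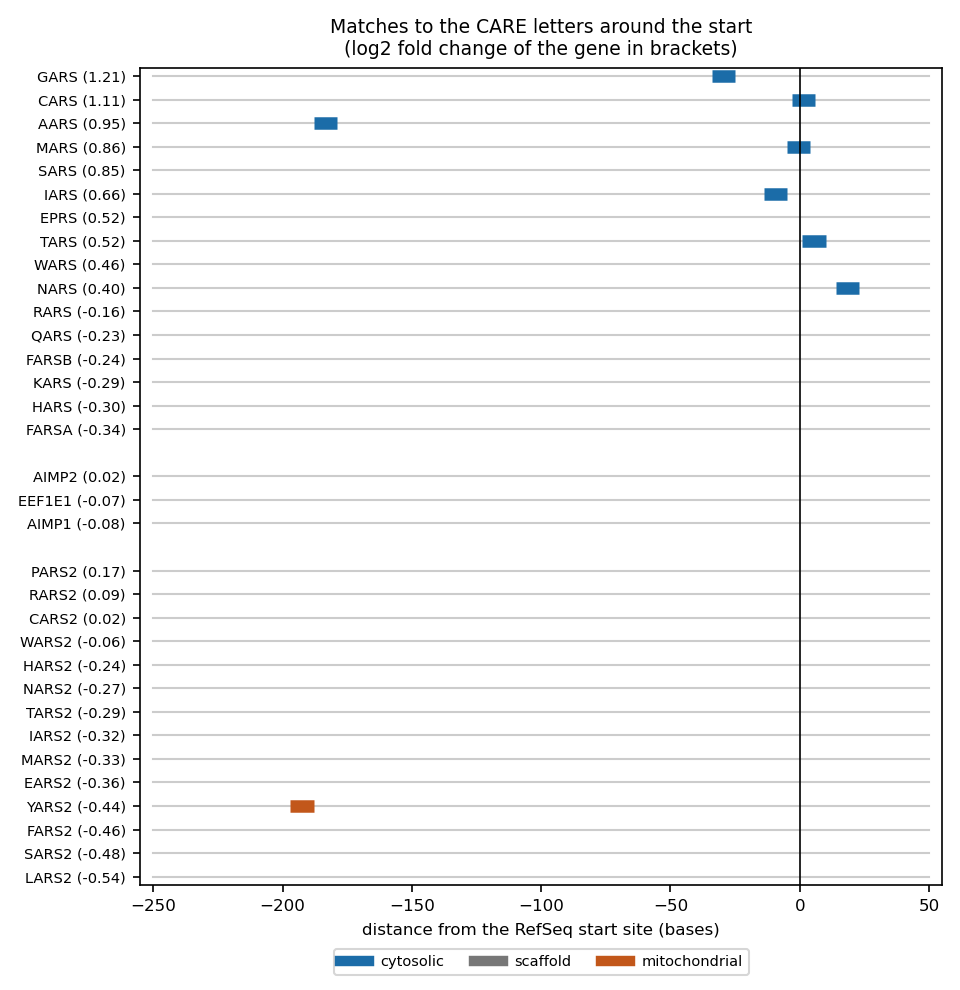
Matches to the letters TGATGNAAN (blocks) along the RefSeq promoter windows (grey lines) of the 33 members with a window. The horizontal axis gives the distance in bases from the start site of the window that held the match. Each gene's log2 fold change is in brackets. The blocks lie near the start site in 6 cytosolic genes that rose and far upstream in AARS and YARS2.

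In 6j treated cells the cytosolic synthetase genes that passed the test were mostly higher, and the mitochondrial ones that passed were lower. With edgeR's quasi-likelihood test and a Benjamini-Hochberg adjusted p under 0.05, 10 of the 20 cytosolic genes rose and 1 fell, none of the 3 scaffold genes passed, and of the 16 mitochondrial genes 2 fell and none rose. Over all rows tested, 4.79% rose and 4.37% fell by the same threshold. GARS, which rose, and KARS, which did not pass, encode the enzymes of both compartments and are counted here as cytosolic. The median log2 fold change was 0.43 for the cytosolic, −0.07 for the scaffold and −0.31 for the mitochondrial genes, beside 0.005 over all rows tested. With a fold change above 1.5 as well, which makes a gene a DEG, 7 cytosolic genes were higher and none lower, beside 2.48% and 1.12% of all rows, and no mitochondrial or scaffold gene was a DEG.

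The counts depended on how the model was fitted. Libraries with the same replicate number varied together, and in a fit that held the replicate number as a block 12 cytosolic genes passed as higher and 6 as lower, while 10 mitochondrial genes passed as lower and none as higher. In that fit 13.1% of all rows passed as higher and 13.9% as lower, so that the background was higher too. The DEGs were again 7 cytosolic genes, all higher, beside 4.01% of all rows called higher and 2.46% called lower. Without non-treated replicate 1 or without 6j treated replicate 2 the 11 cytosolic calls dropped to 7 and the 2 mitochondrial calls to 0. The shares of all rows were then 0.852% higher and 0.386% lower without the former library, and 0.933% higher and 0.399% lower without the latter. The mitochondrial calls were also 0 without non-treated replicate 2 and 1 without 6j treated replicate 3, where 1.58% and 3.08% of all rows passed as lower. DESeq2 passed 10 cytosolic genes as higher and 4 as lower (VARS, FARSA, HARS and KARS) and 6 mitochondrial genes as lower, beside 8.03% of all rows higher and 7.73% lower. No mitochondrial gene was higher at an unadjusted p under 0.05 in edgeR, by DESeq2 or with the block, and 10 were lower at that unadjusted p, beside 13.1% of all rows higher and 13% lower. No scaffold gene passed at an unadjusted p under 0.05 or by DESeq2.

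Among single libraries, all 3 of 6j treated cells lay above all 3 of non-treated cells in 11 cytosolic genes and below them in 5, with overlap in 4. Over all rows these shares were 16% above and 15.8% below. Of the mitochondrial genes none lay wholly above, 9 lay wholly below and 7 overlapped, and all 3 scaffold genes overlapped. These values are shares of the RNA in a library, so that more transcript of these genes per cell and less of the other RNA cannot be told apart.

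**Figure D2:**
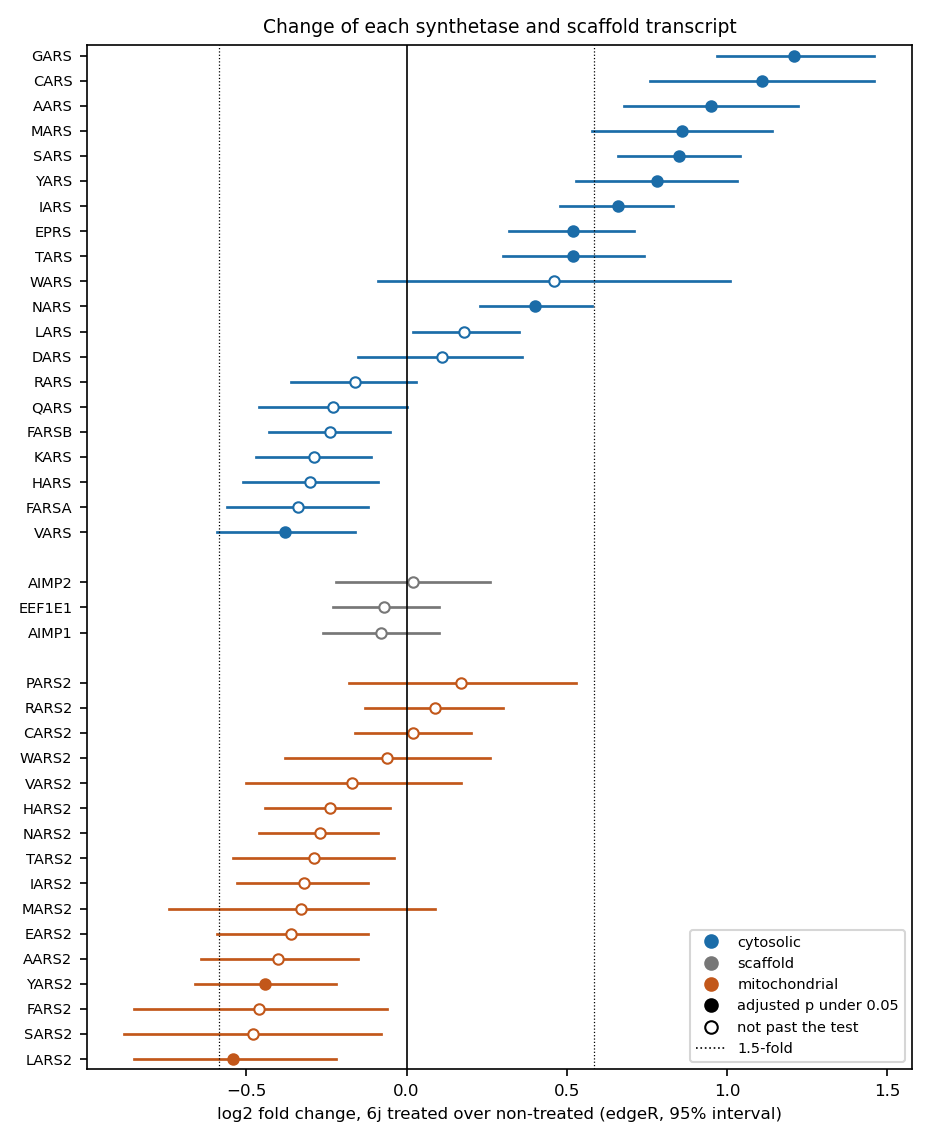
Log2 fold change (6j treated over non-treated, horizontal axis) of the 39 members with the 95% interval of edgeR's fit, filled where the adjusted p was under 0.05, with dotted lines at 1.5-fold in either direction. The 10 filled cytosolic points on the right range from 0.40 to 1.21, the scaffold points lie between −0.08 and 0.02, and 13 of the 16 mitochondrial points lie left of 0.

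GARS, the glycyl-tRNA synthetase on chromosome 7 (30594681 to 30634033, plus strand, GRCh38), had the largest change of all members. Its level was 189, 214 and 171 CPM in the non-treated libraries 1 to 3 and 416, 489 and 427 CPM in the 6j treated libraries. The groups were far apart, and the lowest treated library stood well above the highest non-treated library. The log2 fold change was 1.21 with a standard error (SE) of 0.11 and an edgeR adjusted p = 0.00103, a 2.32-fold rise. CARS, the cysteinyl-tRNA synthetase on chromosome 11 (3000922 to 3057613, minus strand), followed at 50.3, 63.9 and 41.6 CPM against 105, 126 and 106 CPM. Treated libraries again shared no range with non-treated ones, and replicate 2 was the highest of each group. The log2 fold change was 1.11 (SE 0.15, edgeR adjusted p = 0.00752). CARS was among the genes that the study picked from these libraries for RT-qPCR, and it reported all of them as upregulated by 6j. The RT-qPCR was a separate assay, but the choice of CARS for it was not independent of these counts.

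AARS, which charges alanine and lies on chromosome 16 (70252295 to 70289543, minus strand), was counted at 485, 567 and 408 CPM in non-treated and at 899, 955 and 958 CPM in 6j treated cells. It had the highest level per kilobase of exon of all members, and the gap between the groups was wider than either group's range. The log2 fold change was 0.95 (SE 0.12, edgeR adjusted p = 0.00489). SARS, the seryl-tRNA synthetase on chromosome 1 (109213918 to 109238169, plus strand), whose enzyme also charges the tRNA on which selenocysteine is made, went from 120, 124 and 107 CPM to 205, 204 and 223 CPM. The libraries of each group lay close together, and SARS rose by a log2 fold change of 0.85 (SE 0.09, edgeR adjusted p = 0.00174). Its promoter windows held neither motif. YARS, the tyrosyl-tRNA synthetase on chromosome 1 (32775237 to 32818153, minus strand), had 156, 184 and 147 CPM against 289, 300 and 246 CPM. Replicate 3 was the lowest library in both groups, and the groups did not overlap. Its log2 fold change was 0.78 (SE 0.11, edgeR adjusted p = 0.00723).

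MARS and IARS, both subunits of the multi-synthetase complex, completed the 7 DEGs. MARS, which charges the initiator and the elongator tRNA of methionine and lies on chromosome 12 (57475445 to 57517569, plus strand), had 207, 236 and 184 CPM against 405, 407 and 322 CPM. The groups did not overlap, and replicate 3 was the lowest of each. The log2 fold change was 0.86 (SE 0.12, edgeR adjusted p = 0.00758). In the GENCODE annotation MARS shares 355 exon bases with DDIT3, a stress transcription factor gene on the opposite strand, and 519 with ARHGAP9, and the labels name no step that marks the strand. Reads from the shared bases cannot be told apart without strand, and the part of the neighbours in the counts of MARS was not tested. IARS, the isoleucyl-tRNA synthetase on chromosome 9 (92210207 to 92293756, minus strand), had 318, 321 and 314 CPM against 481, 521 and 498 CPM. Its non-treated libraries were nearly equal, and the log2 fold change was 0.66 (SE 0.08, edgeR adjusted p = 0.0036). All 7 DEGs passed the adjusted threshold in each of the 6 fits that left out 1 library. The largest edgeR adjusted p in these fits was close to the threshold for MARS and YARS (0.0495 each) and CARS (0.0492). For the other DEGs it ranged from 0.0148 for GARS to 0.039 for AARS.

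**Figure D3:**
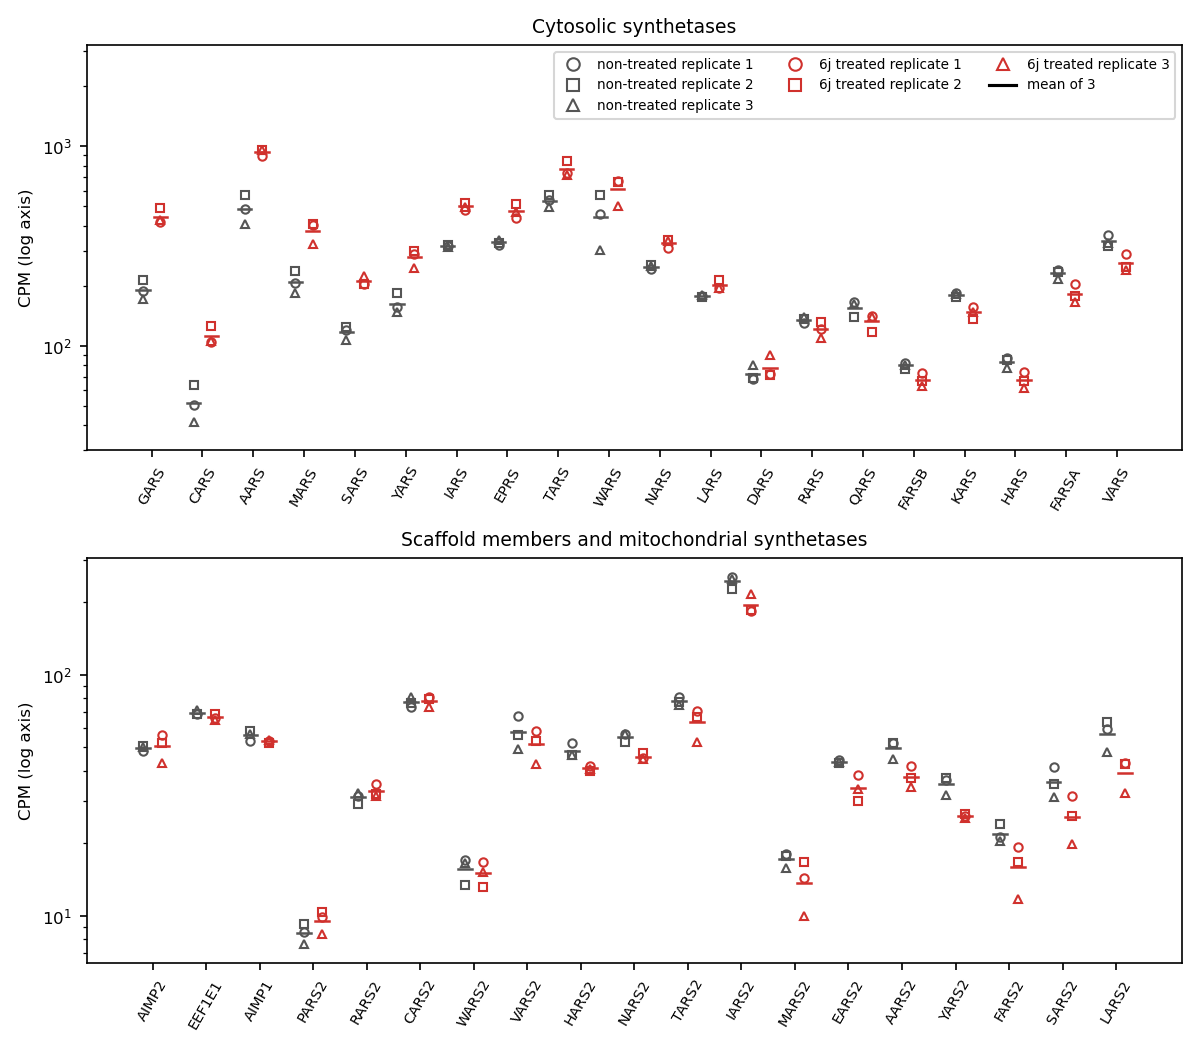
Level of every member in each library in CPM on a log axis, non-treated in grey and 6j treated in red, with the symbol shape giving the replicate number and the bar the mean of 3 libraries. In the upper panel (cytosolic) the red points stand above the grey ones from GARS to TARS and for NARS and LARS. They stand below them for FARSB, KARS, HARS, FARSA and VARS. In the lower panel most mitochondrial genes have lower red points.

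EPRS, TARS and NARS rose by less than 1.5-fold. EPRS encodes a fused enzyme that charges both glutamate and proline, and its level was 321, 328 and 340 CPM in non-treated and 436, 511 and 468 CPM in 6j treated cells. The groups did not overlap, and the log2 fold change was 0.52 (edgeR adjusted p = 0.0113). TARS, the threonyl-tRNA synthetase, had 539, 568 and 495 CPM against 739, 844 and 716 CPM, with a log2 fold change of 0.52 (edgeR adjusted p = 0.0153). NARS, which charges asparagine, had 243, 253 and 251 CPM against 311, 341 and 337 CPM, with a log2 fold change of 0.40 (edgeR adjusted p = 0.0166). The changes of these 3 genes were wider than the spread between libraries, but EPRS did not pass without non-treated replicate 1 or without 6j treated replicate 2, and TARS and NARS did not pass without either of these libraries or without non-treated replicate 3.

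The other 3 cytosolic genes with a positive fold change did not pass. WARS, the tryptophanyl-tRNA synthetase, which interferon γ is known to induce, had 459, 569 and 303 CPM in non-treated and 668, 661 and 504 CPM in 6j treated cells. Replicate 3 was by far the lowest library of each group and the groups overlapped, since 6j treated replicate 3 lay below non-treated replicate 2. The log2 fold change was 0.46 with a 95% interval from −0.09 to 1.01 (edgeR adjusted p = 0.264), and 0.50 with the replicate block (adjusted p = 0.00832). LARS, the leucyl-tRNA synthetase, known also as a leucine sensor of the mTORC1 pathway, had 177, 176 and 179 CPM against 195, 213 and 196 CPM. Each treated library was above each non-treated one, by little, with a log2 fold change of 0.18 (edgeR adjusted p = 0.158, 0.0485 with the block). DARS, which charges aspartate, had 68.0, 68.8 and 80.1 CPM against 72.2, 71.5 and 89.7 CPM and overlapped between the groups, with a log2 fold change of 0.11 (95% interval −0.15 to 0.36).

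VARS, the valyl-tRNA synthetase, was the only cytosolic gene that fell in edgeR without covariates. With the replicate block 6 cytosolic genes passed as lower, and by DESeq2 4 did, VARS among them. VARS lies on chromosome 6 (31777518 to 31795953, minus strand). Its enzyme binds translation elongation factor 1 and is not part of the multi-synthetase complex. VARS had 360, 317 and 329 CPM in non-treated and 287, 249 and 239 CPM in 6j treated cells. The groups did not overlap, and the log2 fold change was −0.38 (SE 0.10, edgeR adjusted p = 0.0424, 0.00073 with the block). Of the 6 fits that left out 1 library, it passed only in the one without 6j treated replicate 1.

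FARSA, FARSB, HARS, KARS, QARS and RARS had negative log2 fold changes between −0.34 and −0.16 that did not pass. FARSA and FARSB encode the α and β subunits of the phenylalanyl-tRNA synthetase. FARSA had 240, 235 and 217 CPM against 205, 177 and 166 CPM, and FARSB had 82.3, 76.6 and 80.1 CPM against 73.0, 66.7 and 63.0 CPM, so both subunits were below their non-treated range in every treated library. KARS, the lysyl-tRNA synthetase, had 184, 176 and 181 CPM against 157, 137 and 148 CPM. HARS, which charges histidine, had 86.8, 84.8 and 77.0 CPM against 73.7, 66.9 and 61.3 CPM. These 4 genes showed no overlap between the groups, with adjusted p-values from 0.052 for KARS to 0.109 for FARSB in edgeR and from 0.00213 for FARSA to 0.0145 for FARSB with the replicate block. QARS, the glutaminyl-tRNA synthetase, overlapped at 165, 139 and 162 CPM against 141, 117 and 139 CPM and passed only with the block (adjusted p = 0.0158 against 0.195 without it, by edgeR). RARS, which charges arginine, overlapped and passed in neither fit.

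No scaffold gene passed the test. AIMP1, which holds the arginyl- and glutaminyl-tRNA synthetases in the complex, had 53.2, 58.5 and 56.6 CPM against 53.4, 52.4 and 53.5 CPM. AIMP2 had 48.3, 50.8 and 50.2 CPM against 56.2, 52.3 and 43.1 CPM, and EEF1E1 had 68.6, 68.9 and 71.8 CPM against 66.1, 68.7 and 65.1 CPM. Both groups covered the same range for each gene or overlapped. The 95% intervals of the log2 fold changes were −0.26 to 0.10 for AIMP1, −0.22 to 0.26 for AIMP2 and −0.23 to 0.10 for EEF1E1, each inside a 1.5-fold change either way. Of the 8 synthetases of the complex, 3 rose (EPRS, IARS and MARS) and none fell, at a median log2 fold change of 0.14. Of the 12 outside it 7 rose and 1 fell, and their median was 0.49. By class, 4 of 9 cytosolic genes of class I rose and 1 fell, and 5 of 10 of class II rose and none fell. EPRS is counted in neither class because it holds both folds. Over all rows 4.79% rose and 4.37% fell, and no difference between the parts of these splits was tested.

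Among the mitochondrial genes, LARS2 and YARS2 fell. LARS2, the mitochondrial leucyl-tRNA synthetase on chromosome 3 (45388506 to 45549421, plus strand), had 59.5, 63.6 and 48.0 CPM in non-treated and 43.0, 42.5 and 32.4 CPM in 6j treated cells. Replicate 3 was the lowest library of each group, and the groups did not overlap. The log2 fold change was −0.54 (SE 0.14, edgeR adjusted p = 0.0469, 0.000262 with the block). YARS2, the mitochondrial tyrosyl-tRNA synthetase on chromosome 12 (32727490 to 32755902, minus strand), had 36.7, 37.2 and 31.8 CPM against 25.9, 26.5 and 25.4 CPM. The 6j treated libraries were nearly equal and below every non-treated library, with a log2 fold change of −0.44 (SE 0.10, edgeR adjusted p = 0.0273, 0.00313 with the block). When libraries were left out in turn, LARS2 passed only without non-treated replicate 3, and YARS2 passed only without non-treated replicate 3 or without 6j treated replicate 1.

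Another 8 mitochondrial genes did not pass in edgeR without covariates and passed as lower with the replicate block. Of these, AARS2, IARS2, EARS2 and NARS2 also passed by DESeq2. AARS2 had 52.4, 52.1 and 44.6 CPM against 41.7, 37.3 and 34.2 CPM (log2 fold change −0.40, edgeR adjusted p = 0.051 and 0.00237 with the block). IARS2, the mitochondrial member with the highest level per kilobase, had 256, 227 and 251 CPM against 185, 186 and 216 CPM. EARS2, which attaches glutamate to the mitochondrial tRNAs of both glutamate and glutamine, had 44.2, 42.9 and 43.7 CPM against 38.4, 30.1 and 33.6 CPM. In AARS2, IARS2 and EARS2 every treated library was below every non-treated one. SARS2, the mitochondrial seryl-tRNA synthetase, was lowest in replicate 3 and highest in replicate 1 of each group, at 41.5, 35.1 and 31 CPM against 31.5, 25.9 and 19.8 CPM, and the groups overlapped. Its log2 fold change was −0.48 (edgeR adjusted p = 0.126, 0.00189 with the block), and it shares 1492 exon bases with AC011455.2 on its own strand, so its counts are uncertain. NARS2 had 56.7, 52.5 and 57.0 CPM against 45.0, 47.4 and 44.9 CPM, and TARS2 had 81.2, 77.2 and 74.8 CPM against 70.8, 67.1 and 52.7 CPM. HARS2 had 52.0, 46.5 and 46.6 CPM against 42.0, 39.9 and 40.8 CPM, and FARS2, which charges phenylalanine as a single chain, had 21.3, 24.1 and 20.5 CPM against 19.4, 16.8 and 11.8 CPM. These 4 genes did not overlap between the groups, with adjusted p-values from 0.0658 for NARS2 to 0.141 for TARS2 in edgeR and from 0.00989 for TARS2 to 0.0282 for HARS2 with the block.

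The remaining 6 mitochondrial genes passed in neither of these fits. PARS2, the prolyl-tRNA synthetase, had the lowest level per kilobase of the mitochondrial genes in non-treated cells and the highest fold change of them, with 8.57, 9.26 and 7.61 CPM against 9.92, 10.4 and 8.38 CPM and a log2 fold change of 0.17 (95% interval −0.18 to 0.53). The groups overlapped in PARS2, RARS2 (0.09), CARS2 (0.02), WARS2 (−0.06), VARS2 (−0.17) and MARS2 (−0.33), where the number is the log2 fold change. VARS2 shares 1858 exon bases with GTF2H4 on the same strand. All 9 mitochondrial genes whose groups did not overlap were lower in 6j treated cells.

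Summed over the 20 cytosolic genes, the level was 4580, 4837 and 4206 CPM in non-treated and 6279, 6589 and 6018 CPM in 6j treated cells, means of 4541 ± 317 and 6295 ± 286 CPM (SD, n = 3) and a ratio of 1.39. The 16 mitochondrial genes together had 877 ± 36.1 CPM in non-treated and 725 ± 32.7 CPM in 6j treated cells (SD, n = 3), a ratio of 0.83. The 3 scaffold genes had 176 ± 4.83 and 170 ± 7.5 CPM (SD, n = 3). The cytosolic and the mitochondrial sums did not overlap between the groups, while the scaffold sums did. Per kilobase of exon, AARS (108 CPM per kilobase), FARSA (94.8) and TARS (93.4) were the highest levels in non-treated cells and CARS (5.17) the lowest cytosolic level. Among the mitochondrial genes IARS2 stood at 58.8 and PARS2 at 3.61 CPM per kilobase. In 6j treated cells AARS was at 208, TARS at 134 and GARS, which had been at 46.1, at 107 CPM per kilobase, while FARSA was at 74.9 and IARS2 at 46.9.

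The difference between the compartments was then measured within amino acids, for the 13 that have a cytosolic and a mitochondrial member of the same name. For each library the log2 CPM of the mitochondrial gene was taken from that of the cytosolic gene, and the change of this difference with 6j was tested by an exact two-sided permutation test over the 6 libraries, whose smallest possible p is 0.1. The change was positive in 10 of the 13 pairs, and its median was 0.82 on the log2 scale. It was 1.36 for AARS and AARS2 (SD between libraries 0.17), 1.35 for SARS and SARS2 (SD 0.31), 1.22 for YARS and YARS2 (SD 0.12) and 1.21 for MARS and MARS2 (SD 0.17). In these 4 pairs the cytosolic gene rose while the mitochondrial gene had a negative fold change. CARS and CARS2 (1.11), IARS and IARS2 (0.98), TARS and TARS2 (0.82), LARS and LARS2 (0.72) and NARS and NARS2 (0.68) followed. The LARS pair differed mostly through its mitochondrial gene, with log2 fold changes of 0.18 and −0.54, whereas the CARS pair differed through its cytosolic gene, with 1.11 and 0.02.

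WARS and WARS2 changed by 0.56 with an SD of 0.48, and the exact permutation p was 0.3. With 1 library left out it ranged from 0.26 without non-treated replicate 3 to 0.87 without non-treated replicate 2. Histidine, valine and arginine did not share the positive change. The value was −0.06 for HARS and HARS2 (SD 0.10, exact permutation p = 0.6), −0.21 for VARS and VARS2 (SD 0.16, exact permutation p = 0.2) and −0.25 for RARS and RARS2 (SD 0.12), the only pair of the 13 with all within-number changes below 0 besides VARS and VARS2. With 1 library left out, VARS and VARS2 ranged from −0.29 to −0.12 (without non-treated replicate 3), and HARS and HARS2 from −0.11 to 0.004 (without 6j treated replicate 3). In all, 10 pairs reached the smallest p of the exact permutation test, which is 0.1. These are not the 10 positive pairs, since they include RARS and RARS2, which changed the other way, and leave out WARS and WARS2. No single pair could pass a threshold of 0.05 in this design. In 9 pairs, all with the cytosolic gene higher, the change exceeded 3 times the SD between libraries. Taken within replicate numbers, the change for AARS and AARS2 was 1.22, 1.23 and 1.61, and for IARS and IARS2 it was 1.07, 0.99 and 0.88. All 10 positive pairs were positive in each of the 3 replicate numbers.

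**Figure D4:**
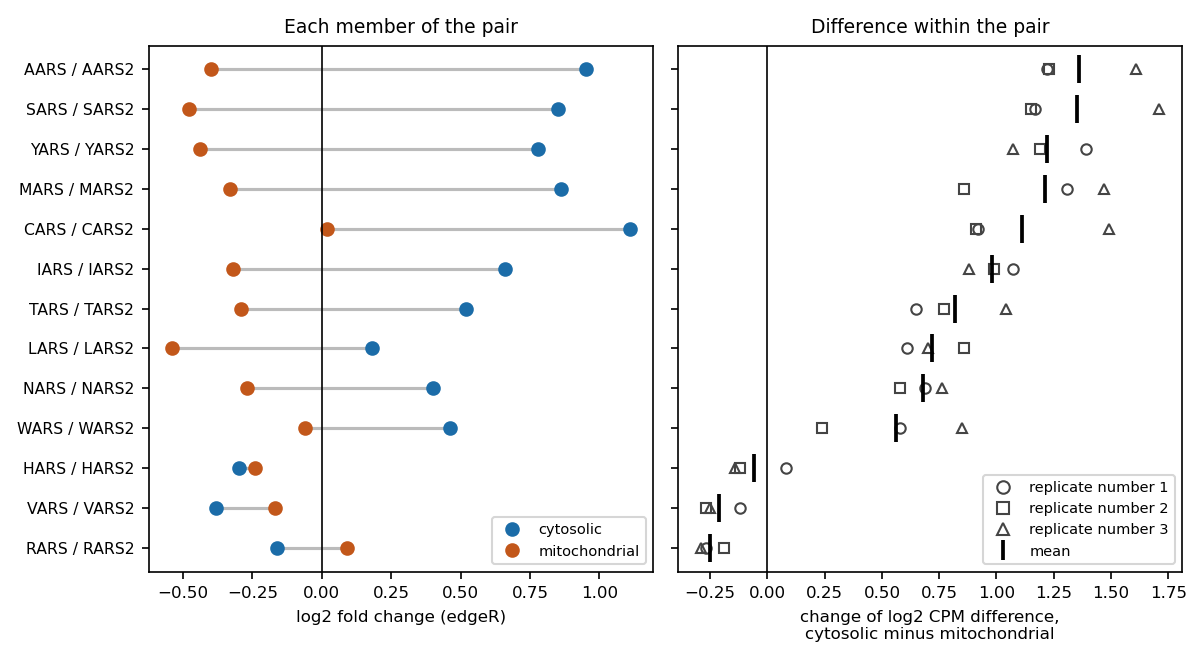
Left, log2 fold change of the cytosolic and the mitochondrial member of the 13 pairs, joined by a line; right, the change of the log2 CPM difference (cytosolic minus mitochondrial) within each replicate number, with a bar at the mean. The pairs from AARS to WARS lie right of 0 in all 3 replicate numbers, and those of VARS and RARS lie left of it.

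HARS and HARS2 differ from the other pairs in their position. Their RefSeq start sites lie head to head on chromosome 5, 84 bases apart, and their GENCODE exons share 437 bases on opposite strands, so reads from the shared bases cannot be assigned without strand. Their log2 fold changes were −0.30 and −0.24, and neither passed in edgeR without the replicate block when all libraries were used. HARS passed by DESeq2 and without 6j treated replicate 1.

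Of 12 other genes of tRNA charging, 1 rose and 1 fell, which is 8.33% each way beside 4.79% and 4.37% of all rows tested. XPOT, the receptor that exports tRNA from the nucleus, had 329, 334 and 331 CPM in non-treated and 577, 697 and 657 CPM in 6j treated cells. The non-treated libraries were nearly equal, and XPOT rose by a log2 fold change of 0.96 (SE 0.09, edgeR adjusted p = 0.00129). This lay between the changes of AARS and CARS, and XPOT passed in all 6 fits that left out 1 library. AARSD1, which removes wrongly attached amino acids from alanine tRNA, had a log2 fold change of −0.69 (edgeR adjusted p = 0.0183) but shares 1267 exon bases with the readthrough gene PTGES3L-AARSD1, and it did not pass without non-treated replicate 1, non-treated replicate 2 or 6j treated replicate 2. TARSL2, GATC, GATB, QRSL1, MTFMT, PSTK, SEPSECS, DTD1, DTD2 and TRNT1 did not pass, with log2 fold changes from −0.32 for GATB to 0.26 for QRSL1, both of which belong to the amidotransferase that makes mitochondrial glutaminyl-tRNA and both of which passed only with the block.

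ATF4, whose protein binds the CARE, had 313, 349 and 290 CPM in non-treated and 693, 660 and 686 CPM in 6j treated cells, and its log2 fold change was 1.10 (edgeR adjusted p = 0.000839). DDIT3, another stress transcription factor gene, had 19.2, 25.6 and 18.1 CPM against 86.5, 116 and 102 CPM, with a log2 fold change of 2.27 (edgeR adjusted p = 0.000575). The groups did not overlap for either gene. Their part in the changes of the synthetase genes was not tested.

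Besides MARS and the HARS pair, some members share exon bases with genes of the table on the opposite strand, namely YARS with S100PBP (396 bases), WARS with WDR25 (287 bases), KARS with TERF2IP (176 bases), EARS2 with UBFD1 (370 bases), CARS2 with ING1 (326 bases), AIMP2 with EIF2AK1 (532 bases), AIMP1 with TBCK (387 bases), SARS2 with MRPS12 (349 bases), AARS2 with TMEM151B and AL353588.1 (235 bases each) and HARS with WDR55 (221 bases). EEF1E1 shares 393 bases with the readthrough gene EEF1E1-BLOC1S5 on its own strand. Pseudogenes named after them are annotated for KARS (3), CARS and AIMP1 (2 each) and AARS, FARSB, GARS, NARS, RARS, WARS, EEF1E1, IARS2, TARS2 and WARS2 (1 each), and how reads that match several places were counted is not given in the sources used here. AARS, EPRS, FARSB, IARS, NARS, RARS, SARS, TARS, VARS, FARS2, IARS2, LARS2, MARS2, PARS2, RARS2 and YARS2 share no exon base with another gene of the annotation.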

How the data were processed

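The data were 6 RNA-seq libraries of MHCC-97H cells, 3 for each group. Whole-number counts for each gene were deposited by the authors without normalization, and replicates were not pooled. The submitters' processing notes name HISAT2, StringTie and GRCh38. Versions, the counting program, the annotation and any use of strand are not given in the sources used here. The authors' own DEG calls came from DESeq2 and were not used.

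From the counts, edgeR 4.0.16 (R 4.3.3) gave TMM factors after filterByExpr and robust quasi-likelihood tests without covariates over 15957 rows, with Benjamini-Hochberg adjustment, and a prior count of 2 for log2 CPM. DEGs passed an adjusted p of 0.05 and a fold change of 1.5. Standard errors came from the F statistic. The edgeR fits with and without the block were tested on simulated counts. These were drawn without an effect shared by replicate number, so they could not check the fits where libraries of the same number vary together. DESeq2 1.42.0, other factors and filters, Ensembl rows only, leaving out each library and the replicate block were alternatives. Pairs were compared in Python 3.11.15 with scipy 1.17.1. Levels per kilobase used the union of exons in GENCODE version 29 (GRCh38), where the coordinates of genes are from. Depth was 31533403 to 38018349 counts a library. Libraries of a group differed by more than sampling noise (chi-square per degree of freedom 21.1 to 58.3), so none was counted as a repeat.

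Deviations from the group means correlated at 0.171, 0.18 and 0.312 for libraries of the same replicate number and at −0.231 to 0.0795 for different numbers, over 15957 rows. The replicate block and the changes within replicate numbers took the numbers to pair the libraries, although no source says what a number marks. The main edgeR tests, DESeq2 and the permutation test did not pair them.

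The members, lists and motifs were chosen with earlier results of these data known. Values in every library are given for members that passed with or without the replicate block and for the largest and smallest change in each group, the rest by range. Protein sequences were not analysed here, and 1 further gene is not reported here.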

Additional observations from a re-analysis of the deposited data

How the results depend on the processing

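With the replicate block the DEGs over all rows went from 574 to 1033, the cytosolic genes past an adjusted p of 0.05 from 11 to 18 and the mitochondrial ones from 2 to 10. DESeq2 passed 6 mitochondrial genes, all lower, and 14 cytosolic ones, 4 of them lower, beside 8.03% of all rows higher and 7.73% lower. Of 51 genes, the block added a pass for 17 and removed none. With 1 library left out, DEGs over all rows ranged from 186 (without non-treated replicate 1) to 772, and were 193 without 6j treated replicate 2 and 379 without non-treated replicate 3. Cytosolic genes that passed ranged from 7 to 14, mitochondrial ones from 0 to 4 and mitochondrial DEGs from 0 to 1, which was LARS2 without non-treated replicate 3 and SARS2 without 6j treated replicate 1. The highest counts came without 6j treated replicate 1, where 10 cytosolic genes were higher and 4 lower, and 4 mitochondrial genes were lower. In that fit 5.07% of all rows passed as higher and 4.8% as lower. The cytosolic median ranged from 0.33 without non-treated replicate 3 to 0.46, and the mitochondrial median from −0.32 to −0.25. The direction turned, with 1 library left out, only in genes near 0 that never passed, with ranges of −0.01 to 0.19 for DARS, −0.06 to 0.12 for AIMP2 (−0.002 without 6j treated replicate 2), −0.01 to 0.07 for CARS2, −0.16 to 0.03 for WARS2 (0.01 without non-treated replicate 1), −0.03 to 0.17 for TARSL2 (−0.01 without non-treated replicate 3) and −0.14 to 0.01 for PSTK. The cause was not tested. The 7 cytosolic DEGs were 7 under every setting run, and other factors, no filter or Ensembl rows only left 49 to 51 of the 51 calls as they were. The 95% interval of the log2 fold change ran from −0.18 to 0.53 for PARS2 at 7.61 to 10.4 CPM and from −0.09 to 1.01 for WARS at 303 to 668 CPM, so that the deeper counts of WARS did not give the narrower interval.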
